A study of Mus musculus with 9 samples.

Results

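Chemokine genes active in the colon wall were examined, namely Cxcl12, Cxcl13, Cxcl14, Cxcl16, Ccl28, Ccl11, Ccl8, Ccl20 and Cx3cl1, together with Ackr3, a receptor that removes Cxcl12. The 10 genes were chosen by name from the chemokine family, with earlier results of these data known. They are 10 of 22262 genes counted at least once in these mice. Colon RNA came from female C57BL/6N wild-type mice aged 12 months. Housing was a standard environment for 4 of them (WT_SE, numbered 1, 2, 3 and 5) and an enriched one for the other 5 (WT_EE, numbered 1 to 5), and neither group carried a transgene. Which cage each mouse lived in was not given in the sources used here, so effects of a cage and of the environment cannot be told apart. The mice of a group are separate animals, and each gave 1 library of molecule counts.

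Chemokines are small secreted proteins that steer leukocytes through receptors coupled to Gi proteins. Homeostatic chemokines are made all the time by stroma and epithelium and place lymphocytes, plasma cells, eosinophils and macrophages in the gut wall, while inflammatory chemokines are induced by infection or injury. Atypical receptors such as Ackr3 bind chemokines and take them up without signaling through G proteins, and so shape the amount that is left. Cx3cl1 and Cxcl16 differ from the other members in that they are made as membrane proteins and are released by proteases such as Adam10.

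The libraries were shallow for genes of this kind. Totals ranged from 295535 to 454043 counts per mouse, so that 3 counts, taken as the floor for a detectable level, equaled 6.61 to 10.2 CPM, which scales a count by the size of its library. Each count is 1 molecule sequenced at its 3′ end, so counts do not grow with transcript length and levels of different genes can be set side by side. This comparison is limited, since counts of many genes did not grow in proportion to depth. Summed counts of genes with means of 100 to 150 grew less, with a slope of log counts on log totals of 0.43. Those of genes with means of 1 to 40 counts, the range of all members, grew more, with slopes of 1.21 to 1.35. Levels of the members can thus depend in part on depth. Levels of the most counted genes named here, such as Gnai2, are not strictly comparable with those of the members. Counts in CPM below were scaled by edgeR's TMM factors. The labels describe the tissue as a piece of the upper colon. Colon epithelium markers were looked at, which do not test the position of the piece along the colon. The mucin gene Muc2 had 242 to 330 counts and the carbonic anhydrase gene Car1 had 147 to 359 counts per mouse, and both were high in all 9 libraries. The water channel gene Aqp8, on the same list, ran from 2 to 111 counts. Markers of position and of lymphoid tissue also varied between the mice. Hoxb13, a gene of the hindmost gut, was at 20 to 56 counts in 5 mice and at 0 to 4 in the other 4. The summed count of 9 B-cell follicle genes was at 28 and 29 in WT_SE mice 2 and 1 and at 1 to 8 in the other 7 mice. Library names end in L3 for WT_SE mice 1 and 3 and in L2 for the other 7. In bulk tissue, fewer cells of a type and less RNA per cell cannot be told apart.

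Sequences upstream of the members are shown for the most counted member, Cxcl12, and for the 3 that varied most between mice, Cxcl14, Cxcl13 and Ccl8. Each is the 60 bases before the RefSeq start on GRCm38.p6, read 5′ to 3′ on the strand of the gene, with the letters TATAA in capitals where present. The windows lie at chr6:117168475-117168534 (+) for Cxcl12, chr13:56296552-56296611 (-) for Cxcl14, chr5:95956879-95956938 (+) for Cxcl13 and chr11:82115125-82115184 (+) for Ccl8.
Cxcl12: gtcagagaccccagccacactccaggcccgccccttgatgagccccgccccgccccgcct
Cxcl14: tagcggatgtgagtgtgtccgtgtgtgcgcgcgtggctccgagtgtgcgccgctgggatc
Cxcl13: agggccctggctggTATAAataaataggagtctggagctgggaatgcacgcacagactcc
Ccl8: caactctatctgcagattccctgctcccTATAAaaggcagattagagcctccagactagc
The RefSeq table held 8 of the 10 members. TATAA stood on the gene strand in 5 of those 8, namely Cxcl13, Ccl8, Ccl20, Cx3cl1 and Ackr3, beside 5.6% of 32851 windows of the same length (7.2% on either strand). Its first T lay 46, 32, 28, 6 and 8 bases before the start in these genes, in that order, so its place differed between them. The window of Cx3cl1 lies inside the gene span given below. The window of Cxcl12 was 75.0% G or C, against a median of 55.0% over all windows. A match of letters is a description of the window and not a site of binding.

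Cxcl12 had the highest median level of the members and Ccl20 the lowest. Ordered by median CPM over the 9 mice, the levels ran from Cxcl12 at 99.0 through Cx3cl1 at 55.5, Ccl28 at 44.4, Cxcl14 at 30.1, Ccl8 at 24.7, Ackr3 at 21.9, Ccl11 at 16.7, Cxcl16 at 16.4 and Cxcl13 at 13.9 to Ccl20 at 5.47. Cxcl12 stood above Cx3cl1, the next gene, in 9 of 9 mice, though below Cxcl14 in WT_EE mouse 4, and Cxcl13 above Ccl20 in 7 of 9. The other 7 neighbors in this order changed places from mouse to mouse, each being above the next in 4 to 6 of the 9 mice, so the order in the middle is not larger than the spread.

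**Figure D1:**
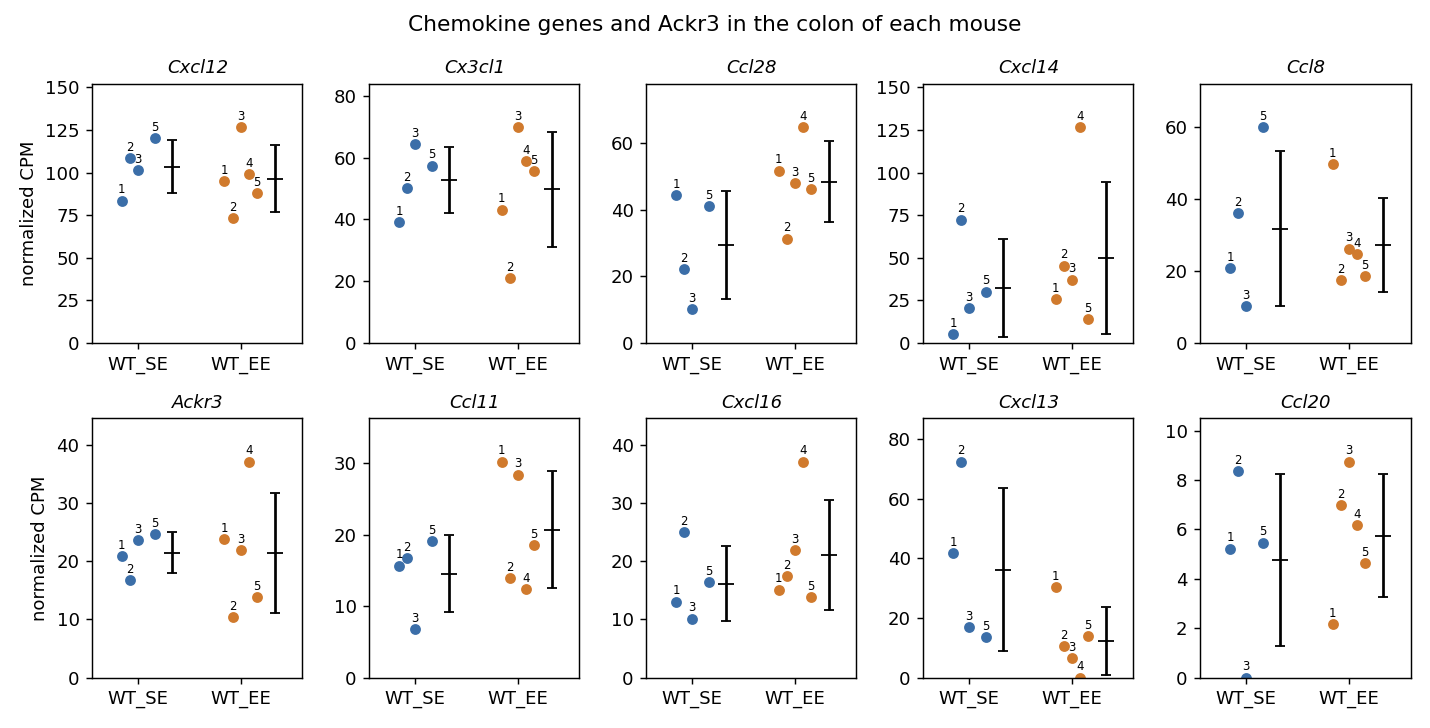
Normalized CPM (vertical axes, each from 0) of the 10 genes in each mouse, with mouse numbers beside the points, WT_SE in blue and WT_EE in orange. Black bars are the mean ± SD of 4 WT_SE and 5 WT_EE mice. In every panel the groups overlap, and Cxcl14 in WT_EE mouse 4 (126.8 CPM) and Cxcl13 in WT_SE mouse 2 (72.4 CPM) are the highest of their groups.

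Together with the other family members, the 9 ligands made up a large part of the chemokine messages of the wall. Over 29 ligand genes with a count, the cytokine Mif left out, each mouse had 135 to 397 counts. Of these the 9 ligands took 33.02% to 54.1%, with a median of 43.1%. Ccl6, a chemokine of myeloid cells, was the most counted ligand with a median share of 31.8%. It was followed by Cxcl12 at 12.5%, Cx3cl1 at 6.54%, Ccl9 at 6.30% and Ccl28 at 6.25%. The neutrophil chemokines Cxcl2, Cxcl3 and Cxcl5, the lymph node chemokine Ccl19 and the eosinophil chemokine Ccl24 had no count in any mouse, while Cxcl1 had 2 counts in all. A count of 0 allows a level up to the floor of 3 counts and does not show absence.

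**Figure D2:**
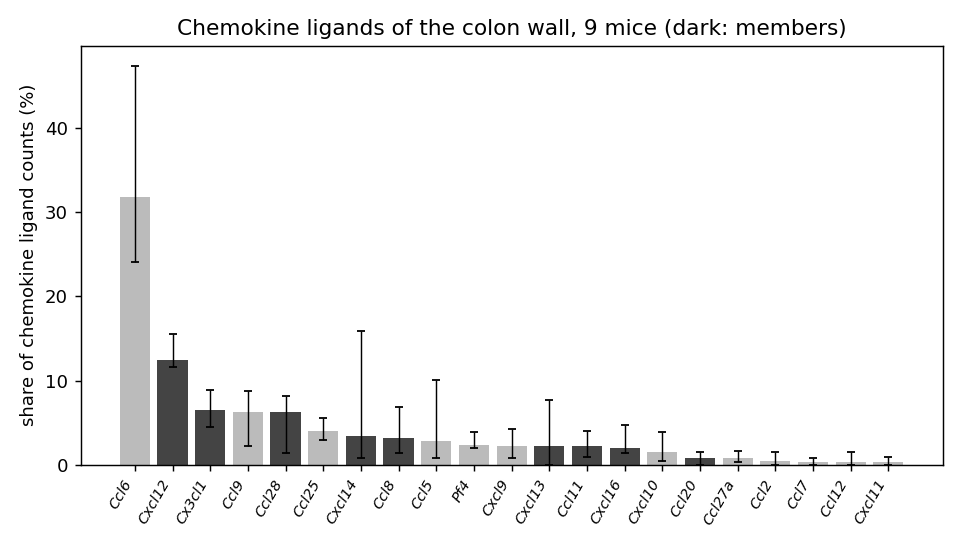
Share of all chemokine ligand counts (vertical axis, percent) taken by each ligand gene with a median above 0. Bars are medians over 9 mice and lines run from the lowest to the highest mouse. Members are dark, and Cxcl12 (12.5%) follows Ccl6 (31.8%).

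Between the environments, 2 of the 10 members passed an unadjusted p limit of 0.05 in edgeR's quasi-likelihood test, Cxcl13 with lower and Ccl28 with higher counts in WT_EE. Over all 17441 genes tested, 1334 passed the same limit, or 7.65%, of which 751 were higher and 583 lower in WT_EE. This split turned to 615 higher and 753 lower with upper quartile scaling and to 642 higher and 713 lower with scaling by genes with means of 5 to 40 counts, while both members kept their direction and call. After Benjamini-Hochberg adjustment over all genes, 0 members passed in edgeR, against 7 genes in all (0.0401%), and 0 members also passed with DESeq2 and with limma-voom. Among the members, 0 had groups without overlap in normalized CPM, against 450 genes in all (2.58%). The median log2 fold change of the 10 members was 0.09, and that of all genes tested was 0.01. Since the members were chosen with earlier results of these data known, these counts are a description and not an independent test.

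**Figure D3:**
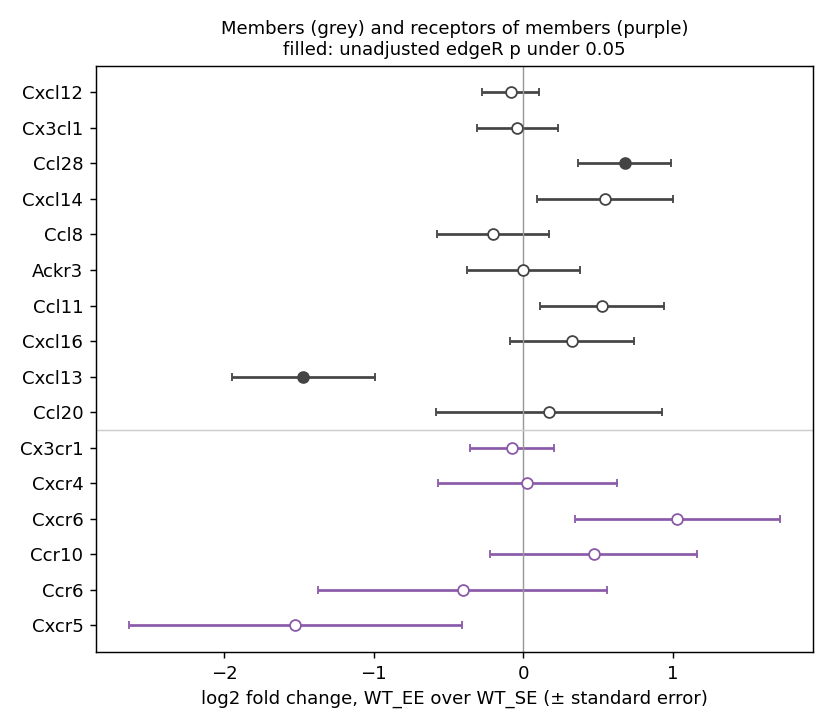
Log2 fold change of WT_EE over WT_SE with its standard error from edgeR (horizontal axis) for the 10 genes (grey) and for those of their receptors that were tested (purple). Filled points passed an unadjusted p limit of 0.05, and these are Ccl28 at 0.68 and Cxcl13 at -1.47.

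Cxcl12 (chr6:117168535-117181367, + strand, in the GENCODE annotation of GRCm38 used for all positions of genes here) is the stromal chemokine that holds leukocytes and progenitor cells bearing Cxcr4 in place. It was counted 32, 39, 30 and 44 times in WT_SE mice 1, 2, 3 and 5, and 44, 21, 58, 32 and 38 times in WT_EE mice 1 to 5. The groups overlapped almost fully. The level was 103.5 ± 15.4 CPM in WT_SE (SD, n = 4) and 96.4 ± 19.6 CPM in WT_EE (SD, n = 5), with a log2 fold change of -0.08 ± 0.19 (SE, adjusted p = 0.958, edgeR with Benjamini-Hochberg). An exact two-sided permutation test of the CPM values gave p = 0.571. Its highest mouse was 1.73 times its lowest. Its biological coefficient of variation of 13.5% was the lowest of the members but ordinary for its count, being above that of 50.4% of 2950 genes of like mean count. Of 7 stroma markers, 0 passed the unadjusted limit in edgeR, and of 6 endothelium markers 1 did, the growth factor receptor gene Kdr (log2 fold change 0.41 ± 0.20 SE). Over the 9 mice the genes most like Cxcl12 in log2 CPM among 5812 genes with a mean of at least 20 counts were Snx13 (r = 0.89), Trim27 (r = 0.89) and Sumf1 (r = 0.88), which describes these 9 libraries only.

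Ackr3 (chr1:90203980-90216751, + strand), the scavenging receptor of Cxcl12, was counted 8, 6, 7 and 9 times in WT_SE and 11, 3, 10, 12 and 6 times in WT_EE. The WT_SE mice lay within the range of the WT_EE mice. Mean levels were 21.5 ± 3.54 CPM in WT_SE (SD, n = 4) and 21.4 ± 10.4 CPM in WT_EE (SD, n = 5), and the log2 fold change of 0.00 ± 0.38 (SE) had no stable sign under other scalings. The ligand was then set against its scavenger within each library, where scaling between libraries plays no part. The log2 ratio of Cxcl12 to Ackr3 counts was 2.20 ± 0.30 in WT_SE (SD, n = 4) and 2.20 ± 0.53 in WT_EE (SD, n = 5), and the difference of 0.00 gave p = 0.992 in an exact two-sided permutation test. Cxcr4, the signaling receptor of Cxcl12, had 1 to 5 counts per mouse and a log2 fold change of 0.03 ± 0.60 (SE).

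Cxcl14 (chr13:56288643-56296551, - strand), a chemokine of epithelium and stroma whose receptor is not settled, was the member that differed most between mice. It was counted 2, 26, 6 and 11 times in WT_SE and 12, 13, 17, 41 and 6 times in WT_EE. The single highest values in each group, WT_SE mouse 2 and WT_EE mouse 4, were 72.4 and 126.8 CPM, and the lowest of all was 5.22 CPM in WT_SE mouse 1, a value of 2 counts and so under the floor. Its biological coefficient of variation of 43.4% was above that of 99.4% of 3110 genes of like mean count. Group means were 31.99 ± 28.8 CPM in WT_SE (SD, n = 4) and 49.8 ± 44.6 CPM in WT_EE (SD, n = 5). The log2 fold change was 0.55 ± 0.45 (SE, adjusted p = 0.819, edgeR with Benjamini-Hochberg). This value rested on single mice, being -0.10 without WT_EE mouse 4 and 1.35, past the unadjusted limit, without WT_SE mouse 2, and it was -0.11 without WT_SE mice 1 and 3.

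Cxcl13 (chr5:95956951-95961068, + strand) is the chemokine with which follicular stroma draws B cells bearing Cxcr5 into lymphoid follicles. It was counted 16, 26, 5 and 5 times in WT_SE and 14, 3, 3, 0 and 6 times in WT_EE. WT_SE mice 2 and 1 had the highest counts, WT_EE mouse 1 came next, and the counts of WT_SE mice 3 and 5 lay among those of the remaining WT_EE mice. Mean levels were 36.2 ± 27.2 CPM in WT_SE (SD, n = 4) and 12.2 ± 11.3 CPM in WT_EE (SD, n = 5), or 2.96 times higher in WT_SE. The log2 fold change was -1.47 ± 0.48 (SE), with an unadjusted edgeR p of 0.00405 and an adjusted p of 0.323 by Benjamini-Hochberg. The exact two-sided permutation test of the CPM values, whose smallest possible p is 0.00794, gave p = 0.111. The call was lost without WT_SE mouse 2, where the log2 fold change was -0.90. Within the 7 libraries ending in L2 it was -1.68 and passed the unadjusted limit. With no filter on low counts the adjusted p was 0.0335 (edgeR with Benjamini-Hochberg).

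The same mice were high in genes of B-cell follicles. Cr2, the complement receptor of B cells and follicular dendritic cells, was counted 8, 14, 0 and 3 times in WT_SE and 2, 0, 1, 0 and 0 times in WT_EE (log2 fold change -3.27 ± 0.82 SE, adjusted p = 0.130, edgeR with Benjamini-Hochberg). Of the 10 genes on the follicle list, 9 had a count and 7 were tested, and 3 of these were lower in WT_EE at the unadjusted limit and 0 higher. Over all 17441 genes tested, 583 were lower and 751 higher at this limit. The 3 follicle genes were Cr2, the B-cell surface gene Ms4a1 and the antigen receptor gene Cd79b. Cd79b had 4 counts in all, each in WT_SE. It reached the 4 CPM filter only there, so its direction was set by the filter and adds no support. Cd79a had no count. Summed over the list, WT_SE mice 1, 2, 3 and 5 had 29, 28, 1 and 8 counts and the WT_EE mice had 8, 3, 4, 2 and 7. Over 9 mice the log2 CPM of Cxcl13 and the mean of 6 list genes gave Pearson's r = 0.79 (exact permutation p = 0.00787, adjusted p = 0.0945 over 12 relations) and Spearman's rho = 0.65 (exact permutation p = 0.0666, adjusted p = 0.510). Without WT_SE mice 1 and 2, r was 0.50, so the relation rested on those mice, and within the 7 libraries ending in L2 it was 0.86. Members and lists were chosen with earlier results of these data known, so this is not an independent test. The other 11 relations, each between a member and a marker list, had adjusted exact permutation p-values from 0.611 to 0.913 for r. Hoxb13 had 4, 0, 0 and 56 counts in WT_SE and 0, 45, 21, 24 and 20 in WT_EE, and the 3 mice with the most Cxcl13 had 0 to 4. Hoxb13 was singled out after its values were seen, and other genes of the 7 on the posterior Hox list had other patterns. Hoxa13 had 37, 11, 18 and 40 counts in WT_SE and 21 to 33 in WT_EE, and Hoxd10 and Hoxd11 were highest in WT_SE mouse 2 at 22 and 28. Of the 5 Hox genes tested, Hoxa11 was higher and Hoxd11 lower in WT_EE at the unadjusted limit, with a median log2 fold change of -0.10 for the list. Most fat markers were also high in WT_SE mouse 1. It had 70 counts of Adipoq against 0 to 29 in the other mice, and 25 of the lipid droplet gene Plin1 against 0 to 7. Of the 4 mesothelium markers, Upk3b was highest in that mouse, at 6 counts against 0 to 2. The others did not single it out, with Wt1, Lrrn4 and Msln at 3, 2 and 0 counts there against at most 4, 3 and 1 elsewhere. In WT_EE, Plin1 (log2 fold change -1.80 ± 0.75 SE) and Upk3b (-2.97 ± 1.14 SE) were lower at the unadjusted limit, as 1 of 7 fat markers and 1 of 3 mesothelium markers tested. Both were highest in WT_SE mouse 1, and exact permutation tests of CPM gave p = 0.437 for Plin1 and 0.127 for Upk3b. Upk3b reached the filter on low counts only in WT_SE, so its direction was set by the filter. The part of follicles, of fat and of the position of the piece along the colon in the Cxcl13 difference was not tested.

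**Figure D4:**
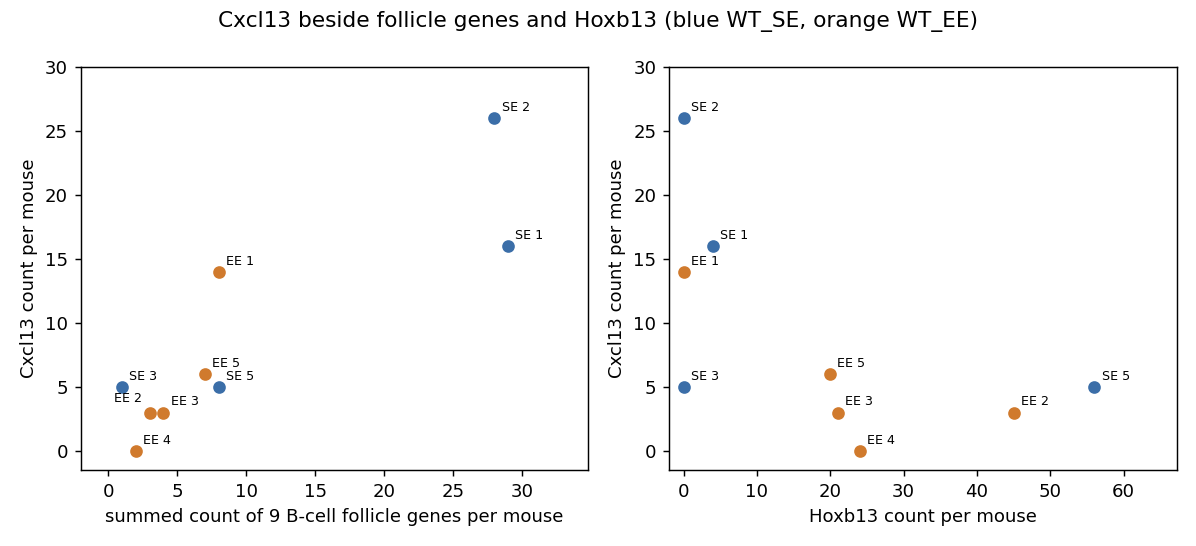
Cxcl13 counts per mouse (vertical axes) against the summed count of 9 B-cell follicle genes (left) and against the Hoxb13 count (right), WT_SE in blue and WT_EE in orange. WT_SE mice 1 and 2 stand apart with 29 and 28 follicle counts, and the mice with 14 or more Cxcl13 counts have at most 4 Hoxb13 counts.

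Ccl20 (chr1:83116766-83119167, + strand), which the epithelium over follicles makes to attract cells bearing Ccr6, was near the limit of detection. It had 2, 3, 0 and 2 counts in WT_SE and 1, 2, 4, 2 and 2 in WT_EE, with 8 of the 9 mice at or under the floor of 3 counts. No direction is given for it. Both lymphoid receptors were as rare, with 7 counts of Cxcr5 and 10 counts of Ccr6 over all 9 mice.

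Ccl28 (chr13:119623819-119654359, + strand) is the chemokine of mucosal epithelium that draws plasma cells making immunoglobulin A, through Ccr10, and eosinophils, through Ccr3. It was counted 17, 8, 3 and 15 times in WT_SE and 24, 9, 22, 21 and 20 times in WT_EE. In CPM, WT_SE mice 2 and 3 were the lowest at 22.3 and 10.2, while WT_SE mice 1 and 5 at 44.4 and 41.0 lay inside the WT_EE range of 31.4 to 64.9. Mean levels were 29.5 ± 16.1 CPM in WT_SE (SD, n = 4) and 48.5 ± 12.04 CPM in WT_EE (SD, n = 5), or 1.65 times higher in WT_EE. The log2 fold change of 0.68 ± 0.31 (SE) had an unadjusted edgeR p of 0.0354 and an adjusted p of 0.599 by Benjamini-Hochberg. The exact two-sided permutation test gave p = 0.0952. The call was lost in 8 of 21 alternatives, among them those without WT_SE mouse 2, WT_SE mouse 3, WT_EE mouse 1 or WT_EE mouse 4, and the log2 fold change was lowest at 0.44 without WT_SE mouse 3. The 2 mice with the least Ccl28 in CPM were also those with the least Aqp8, a water channel of surface colonocytes, at 17 and 2 counts against 68 to 111 in the other mice. Other genes of the 5 on the colon epithelium list were mixed in those 2 mice, WT_SE mice 2 and 3. Car1 had 311 and 325 counts, among the highest, and Muc2 had 250 and 295. The chloride exchanger gene Slc26a3 had 99 and 98, the lowest counts of the 9 mice, and Fcgbp had 90 and 112. These counts are not scaled to depth, and the 2 libraries had totals of 356704 and 299062. Aqp8 was itself higher in WT_EE at the unadjusted limit (log2 fold change 0.73 ± 0.35 SE, adjusted p = 0.628, edgeR with Benjamini-Hochberg). Of 7 general epithelial markers, 0 passed the unadjusted limit in edgeR in either direction, and their summed level was 1949 to 2411 CPM in WT_SE and 2111 to 2734 CPM in WT_EE. The part of surface epithelium in the Ccl28 difference was not tested. Ccr10 had 1 to 5 counts per mouse and Ccr3 had 2 counts in all.

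Cx3cl1 (chr8:94772009-94782427, + strand), a membrane-bound chemokine of epithelium, endothelium and neurons, acts on the macrophages and dendritic cells of the gut through Cx3cr1. It was counted 15, 18, 19 and 21 times in WT_SE and 20, 6, 32, 19 and 24 times in WT_EE. The lowest mouse, WT_EE mouse 2, was also the shallowest library, and the other mice of both groups overlapped. Levels were 52.7 ± 10.7 CPM in WT_SE (SD, n = 4) and 49.7 ± 18.7 CPM in WT_EE (SD, n = 5), with a log2 fold change of -0.04 ± 0.27 (SE, adjusted p = 0.985, edgeR with Benjamini-Hochberg). Its receptor Cx3cr1 was the most counted of 22 receptor genes, with 12, 30, 12 and 24 counts in WT_SE and 25, 13, 32, 8 and 27 in WT_EE. Receptor levels were 55.3 ± 23.8 CPM in WT_SE (SD, n = 4) and 51.3 ± 17.5 CPM in WT_EE (SD, n = 5), and the log2 fold change was -0.07 ± 0.28 (SE). Ligand and receptor were thus both within the spread between mice.

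Cxcl16 (chr11:70453983-70459984, - strand), the other membrane-bound member, is a scavenger receptor for oxidized lipoprotein as well as the ligand of Cxcr6 on T cells and innate lymphoid cells. It had 5, 9, 3 and 6 counts in WT_SE and 7, 5, 10, 12 and 6 in WT_EE, and the groups overlapped. Its level was 16.2 ± 6.46 CPM in WT_SE (SD, n = 4) and 21.1 ± 9.47 CPM in WT_EE (SD, n = 5), with a log2 fold change of 0.33 ± 0.42 (SE, adjusted p = 0.913, edgeR with Benjamini-Hochberg). Cxcl16 overlaps Zmynd15, which lies on the other strand and had 5 counts in all. Counts of Cxcr6 were at most 3 in WT_SE mice and at most 8 in WT_EE mice, with a log2 fold change of 1.03 ± 0.69 (SE, adjusted p = 0.742, edgeR with Benjamini-Hochberg). Adam10 and Adam17, proteases that release such ligands, had log2 fold changes of -0.06 ± 0.17 and 0.12 ± 0.17 (SE).

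Ccl11 (chr11:82057823-82062955, + strand), or eotaxin, brings eosinophils into the gut wall through Ccr3. It had 6, 6, 2 and 7 counts in WT_SE and 14, 4, 13, 4 and 8 in WT_EE, so that WT_EE mice 1 and 3 were highest and the rest overlapped. The level was 14.6 ± 5.40 CPM in WT_SE (SD, n = 4) and 20.7 ± 8.22 CPM in WT_EE (SD, n = 5), with a log2 fold change of 0.52 ± 0.41 (SE, adjusted p = 0.816, edgeR with Benjamini-Hochberg).

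Ccl8 (chr11:82115185-82116799, + strand), which macrophages make to attract further leukocytes, was counted 8, 13, 3 and 22 times in WT_SE and 23, 5, 12, 8 and 8 times in WT_EE. One mouse of each group, WT_SE mouse 5 and WT_EE mouse 1, held the highest values at 60.1 and 49.7 CPM. The means were 31.8 ± 21.7 CPM in WT_SE (SD, n = 4) and 27.3 ± 13.1 CPM in WT_EE (SD, n = 5), and the log2 fold change of -0.20 ± 0.37 (SE) was 0.30 without WT_SE mouse 5. It was -0.77 with the library-name ending in the model and -0.76 without WT_SE mice 1 and 3, neither past the unadjusted limit. Its biological coefficient of variation of 29.1% was above that of 96.0% of 3010 genes of like mean count. With Cxcl14 and with Cxcl13, at 39.6% and above 98.7% of 2757 such genes, Ccl8 thus formed the uneven end of the set. The remaining 7 members lay between 13.5% and 21.2%. Ccr8, a receptor of Ccl8 in mice, had no count in any library.

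Around the members, other genes of the chemokine system were listed by role. Of 22 receptor genes, 19 had a count and 16 were tested, with a median log2 fold change of 0.11. Next to Cx3cr1, the most counted receptors were Ackr4, which scavenges lymphoid chemokines, at a mean of 36.3 CPM, and Ccr2, the receptor of inflammatory monocytes, at a mean of 23.0 CPM.

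Of 31 other ligand genes, 21 had a count and 16 were tested, with 1 higher and 1 lower at the unadjusted limit, beside 7.65% of all genes, and a median log2 fold change of -0.16. Ccl5, a chemokine of cytotoxic lymphocytes, had 2, 17, 2 and 5 counts in WT_SE and 10, 4, 40, 7 and 13 in WT_EE. Its log2 fold change was 0.98 ± 0.48 (SE, adjusted p = 0.649, edgeR with Benjamini-Hochberg), and the exact permutation p was 0.437. Ccl6 had 102, 107, 102 and 125 counts in WT_SE and 107, 39, 117, 62 and 103 in WT_EE. Before scaling, WT_EE mice 1, 3 and 5 lay within the WT_SE range of counts. After scaling the groups of Ccl6 did not overlap, as for 2.58% of all genes tested. Levels were 313 ± 37.7 CPM in WT_SE (SD, n = 4) and 211 ± 47.8 CPM in WT_EE (SD, n = 5). Counts of Ccl6 lay near the range that grew less than in proportion to depth. The WT_EE libraries had the higher median total, 426436 against 362850. At like totals, however, Ccl6 had 39 counts in WT_EE mouse 2 (total 295535) and 102 in WT_SE mouse 3 (total 299062). The part of depth in the Ccl6 difference was not tested. The log2 fold change of Ccl6 was -0.54 ± 0.15 (SE, adjusted p = 0.199, edgeR with Benjamini-Hochberg), and the exact permutation test gave 0.00794, the smallest p it can give. Ccl27a and Ccl25 did not pass the unadjusted limit in edgeR. They were picked out after their values were seen among the 21 genes of this list with a count. Their exact permutation tests gave p = 0.00794 and 0.0397, not adjusted, and no share over all genes is given beside them. Ccl25 was lower in WT_EE, at a mean of 26.7 CPM against 40.8 CPM in WT_SE. Ccl27a had 2, 3, 2 and 5 counts in WT_SE and 2, 1, 1, 1 and 2 in WT_EE. Only WT_SE mouse 5 had more than 3 counts, so no direction is given for Ccl27a. Of 9 macrophage markers, 0 passed the unadjusted limit in edgeR, and their summed level was 260 to 379 CPM in WT_SE and 223 to 384 CPM in WT_EE. All 9 had a negative log2 fold change, with a median of -0.24. The part of macrophage content in the Ccl6 difference was not tested. Mif and Ccl9 followed Ccl6 among the other ligands at means of 114 and 43.3 CPM.

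All 12 genes of processing and signaling were tested, with a median log2 fold change of 0.08. At the unadjusted limit 1 was higher and 0 lower, beside 7.65% of all genes tested in either direction. The one gene was Rgs1, a regulator that ends Gi signaling of chemokine receptors in lymphocytes. It was counted 20, 17, 6 and 20 times in WT_SE and 25, 37, 30, 35 and 43 times in WT_EE, so that every WT_EE count was above every WT_SE count, although the groups overlapped once scaled to CPM. Levels were 43.6 ± 15.9 CPM in WT_SE (SD, n = 4) and 91.3 ± 30.9 CPM in WT_EE (SD, n = 5), with a log2 fold change of 0.99 ± 0.27 (SE, adjusted p = 0.188, edgeR with Benjamini-Hochberg) and an exact permutation p of 0.0476. Of 6 T-cell markers, 0 passed the unadjusted limit in edgeR, and their summed count was 6 to 16 in WT_SE and 3 to 21 in WT_EE. The G protein gene Gnai2, the regulator Rgs2 and Hmgb1, whose protein forms a complex with Cxcl12, were the most counted of the list at means of 317, 215 and 190 CPM.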

How the data were processed

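Colon RNA of 9 wild-type mice (4 WT_SE, 5 WT_EE) was sequenced with a 3′ messenger RNA kit with unique molecular identifiers. The authors deposited counts per gene as whole numbers without normalization, 1 table per mouse. Per the submitters' processing notes, fastp 0.20.0, STAR 2.7.0f, featureCounts 1.6.0 and UMI-tools were used on GRCm38.p6. Identifiers remove amplification copies, and the floor of 3 counts covers counting error only.

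edgeR 4.0.16 was run in R 4.3.3 on genes that reached 4 CPM in any library, scaled by TMM, and the quasi-likelihood F test had the environment as its only term. p-Values of this fit were adjusted by Benjamini-Hochberg over the 17441 genes tested, those of correlations over 12 relations, and those of permutation tests of single genes were not adjusted. The log2 ratio of Cxcl12 to Ackr3 used a pseudocount of 0.5, and log2 CPM a prior count of 2. Exact permutation tests ran over the 126 ways to part the mice into 4 and 5, or over all pairings for correlations (python 3.11.15, numpy 2.4.6, pandas 2.3.3, scipy 1.17.1). Figures were drawn with matplotlib 3.10.9.

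For highly counted genes, counts rose less than in proportion to library totals, and for genes in the count range of the members they rose more. The slope of log counts on log totals was 0.43 for genes with means of 100 to 150 counts and 1.35 for means of 10 to 20 counts, the range of several members. An added scaling by genes with means of 5 to 40 counts addressed this. Pairs of mice of a group differed with a chi-square per degree of freedom of 1.17 to 2.30, so no library was taken to be deposited again.

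Named genes were the 10 members, their receptors, genes of the receptor, ligand and processing lists past the unadjusted limit or among the 3 most counted, marker genes past that limit where a list is set beside a member, and the 3 genes most like a member with a mean of at least 20 counts. Muc2, Car1, Slc26a3, Fcgbp, Hoxa13, Hoxb13, Hoxd10, Adipoq, Cd79a, Adam10 and Adam17 were named after their values were seen. So were the mesothelium markers Wt1, Lrrn4 and Msln, the ligands Ccl25 and Ccl27a, and the ligands without a count. Members and lists were chosen with earlier results of these data known. Alternatives were other filters, scalings and tests (DESeq2 1.42.0, limma-voom 3.58.1), the library-name ending, the mouse number as a block, and mice left out. The result of 1 gene of the receptor list is not reported here.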

Additional observations from a re-analysis of the deposited data

Results flagged for a closer look

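Of 36 groups of 4 or 5 mice looked at, 2 held a single mouse far from the others by Dixon's test at the 95% level, where chance gives about 1 in 20. Cxcl14 was at 126.8 CPM in WT_EE mouse 4, with the other WT_EE mice at 13.9 to 45.3 CPM. Ccl8 was at 49.7 CPM in WT_EE mouse 1, with the other WT_EE mice at 17.4 to 26.2 CPM.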

How the results depend on the processing

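The number of genes past the unadjusted limit was 643 with DESeq2, 688 with the ending of the library name as a covariate, 680 without WT_SE mice 1 and 3, and 899 to 1581 with 1 mouse left out. The number of members past it was 1 in each of these settings except the last, where it was 1 or 2, and also 1 with at least 4 CPM in every library, where Cxcl13 was not tested. The number of genes past the adjusted limit was 7 in the reported fit, 143 with no filter on low counts, 70 with the replicate block, 0 with DESeq2, limma-voom, the name ending, at least 4 CPM in every library, without WT_SE mice 1 and 3 or with the newer quasi-likelihood test (chosen after seeing the data), and 0 to 48 with a mouse left out. After adjustment, 1 member, Cxcl13, passed with no filter on low counts. The permutation tests called 0 members, and 0 to 1 with a mouse left out, namely Cxcl13 without WT_SE mouse 5 (exact p = 0.0357) and Ccl28 without WT_EE mouse 2 (exact p = 0.0286). Among the correlations 1 passed adjustment without WT_SE mice 1 and 3, and 0 to 1 with a mouse left out. The cause of these changes was not tested.

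Cxcl13 kept its call in 19 of 20 alternatives and Ccl28 in 13 of 21. With 1 mouse left out, the log2 fold change ran from -2.15 to -0.90 for Cxcl13 and from 0.44 to 0.94 for Ccl28. Values close to 0 changed sign. The log2 ratio of Cxcl12 to Ackr3 differed by -0.22 without WT_SE mice 1 and 3, by -0.0060 with a pseudocount of 1, and by -0.10 to 0.21 with a mouse left out. With the name ending as a covariate the log2 fold change was -0.12 for Cxcl14, -0.0090 for Cxcl16 and -0.28 for Ccl20, and without WT_SE mice 1 and 3 it was -0.11 for Cxcl14, -0.27 for Ccl20, -0.22 for Cxcl12 and 0.28 for Ccl11. With a mouse left out it ran from -0.21 to 0.0056 for Cxcl12, -0.10 to 1.35 for Cxcl14, -0.55 to 0.30 for Ccl8, -0.15 to 0.53 for Ccl20, -0.20 to 0.12 for Cx3cl1 and -0.23 to 0.14 for Ackr3. Ackr3 was at -0.0078 with DESeq2 size factors, -0.0098 with its test, -0.047 with upper quartile scaling, -0.094 with limma-voom and -0.038 with scaling by genes with means of 5 to 40 counts, the last chosen after seeing the data. The correlation of Ccl28 with the epithelium list ran from -0.14 to 0.37.

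Mouse numbers do not pair the mice, which are different animals, and deviations of same-numbered mice correlated above 0.1 in 2 of 4 pairs, with 0 of 4 mice correlating best with their own number. With the mouse number as a replicate block, 1170 genes and 1 member passed, Ccl28 no longer being called, and Ackr3 was at -0.29. Members had means of 2.0 to 37.6 counts per mouse, so for those near the floor a difference was not detectable at this depth.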
